A study of Gallus gallus with 4 samples.

Results

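The mRNA levels of kinetochore, centromere and spindle checkpoint genes were followed in chick embryo tissue treated with VEGF-A. In all 42 such genes were looked up by symbol on the Affymetrix chicken array, and 37 of them had a probe set among the 13008 genes named there. SPC24, CENPA, CDCA8, SKA1 and SKA2 were not named by the platform table and are not analysed here. Where a gene has several probe sets, the brightest by its mean over the 4 arrays of the series represents it, and 35 of the 37 passed the signal filter used for the statistical fit. KNL1 and CENPN did not pass it.

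The kinetochore is the protein machine that ties each chromosome to the spindle. A constitutive inner network sits on the centromere, outer complexes hold microtubules, and a passenger complex with a kinase corrects wrong attachments. The spindle checkpoint reads unattached kinetochores and holds back anaphase until every chromosome is bound. Most of these genes are known for expression that peaks in dividing cells, and a tissue that grows new vessels contains such cells.

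RNA came from the chorio-allantoic membrane (CAM) of chick embryos, the vascular membrane with which the embryo breathes. A Thermanox disc with 3 µg of dried human recombinant VEGF-A, the growth factor of endothelial cells, was laid on the intact CAM on day 13, and the tissue under it was excised on day 14, 24 h later. VEGF CAMs 1, 2 and 3 were single membranes, picked for visible new capillaries, with 1 array each. The control was RNA pooled from 3 normal CAMs of the same day on 1 array, and the sources differ on whether a disc and solvent lay on these. How far control CAMs differ from each other was thus not measured. In such bulk tissue, more dividing cells and more RNA per dividing cell cannot be told apart.

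Values are the deposited signals on a linear scale, each array scaled to the same trimmed mean. The probe sets of other organisms on the array, 744 of them, show what signal appears where no chicken RNA is targeted. Their 95th percentile was 19.4 on the control array and lay between 13.7 and 18.3 on the VEGF arrays, and it is called the background here. On the control array 30 of the 37 genes were above it, against 35, 34 and 34 in VEGF CAMs 1, 2 and 3. Of the 13008 named genes 9391 were above it in the control pool and 9666, 9235 and 9643 in VEGF CAMs 1, 2 and 3. The background was lower on the VEGF arrays, so these counts depend on it as well as on the signals. Ratios of members not above the background depend on it. The plot of signals by array shows this line beside every gene.

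**Figure D1:**
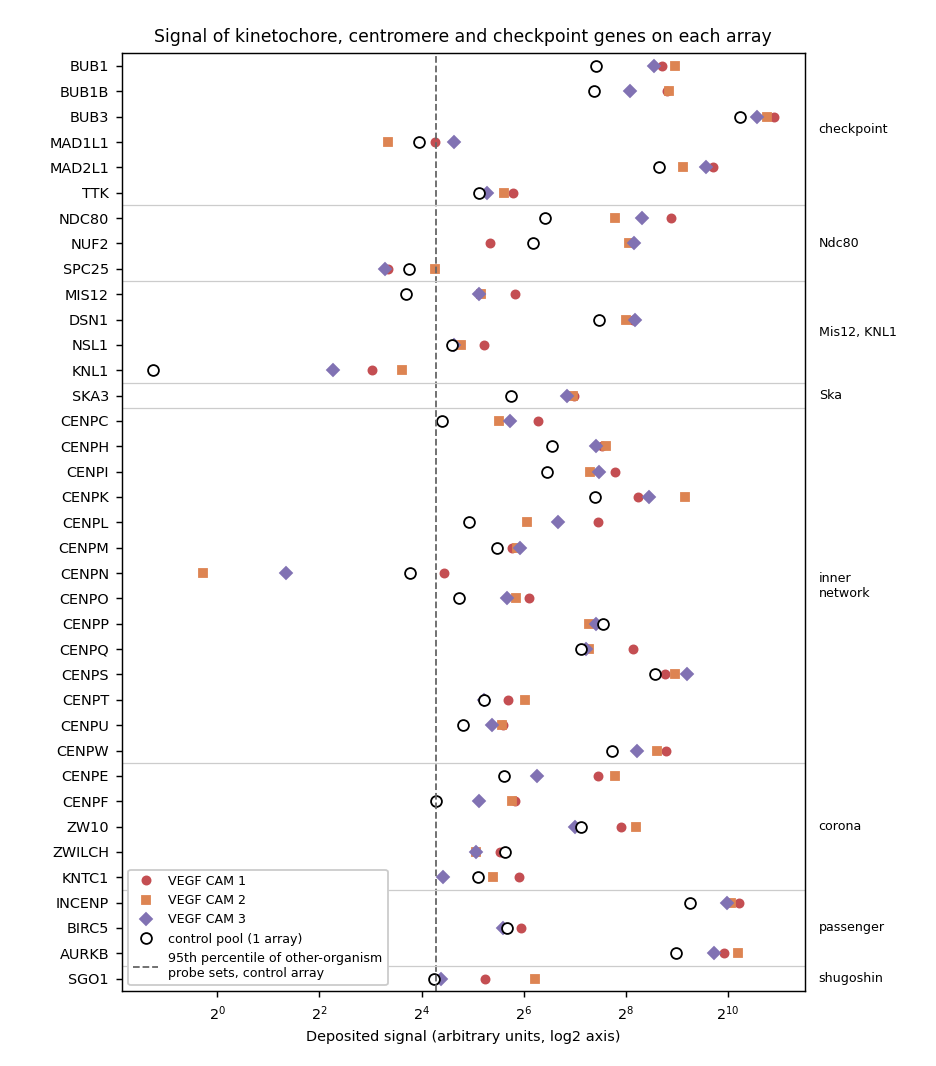
Deposited signal (log2 axis) of the 37 genes, with an open circle for the control pool, filled symbols for VEGF CAMs 1, 2 and 3, and a dashed line at the background of 19.4 on the control array. In 28 genes all 3 VEGF symbols lie to the right of the control, and KNL1 lies below the line on every array; signals compare within a row only, since probe sets differ in brightness.

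By the selection rule of the methods, taken without its detection calls, a gene counted as higher where its ratio to the control pool was above 2 on at least 2 of the VEGF arrays. This held for 15 of the 37 genes, while the same rule took 8.16% of the 13008 named genes. In the other direction 1 of 37 was called, CENPN, against 10.7% of all genes. More than 2-fold in all 3 VEGF CAMs were 7 genes, against 2.98% of all genes. The ratio was above 1 in all 3 CAMs for 28 genes, against 23.2% of all genes, and below 1 in all 3 for 2 genes, against 30.1%. Where the control signal was above background, 11 of 30 genes were called higher, against 2.73% of all such genes, and 0 lower, against 7.24%.

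With 1 membrane left out, the rule is also stricter, since both remaining CAMs must pass. Without VEGF CAM 1 it gave 9 genes, against 4.54% of all genes. Without VEGF CAM 2 it gave 8 genes, against 5.03%, and without VEGF CAM 3 it gave 12 genes, against 4.54%. The median log2 ratio of the 37 genes was 0.92, 0.85 and 0.68 in VEGF CAMs 1, 2 and 3. Over all named genes the medians were -0.08, -0.05 and -0.05.

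No member passed a test across all probe sets. By limma, with Benjamini-Hochberg adjustment over 22616 probe sets, 0 members and 0% of the 10505 genes tested were higher at an adjusted p under 0.05. At an unadjusted p under 0.05 the fit had 16 of 35 members higher, against 3.98% of the genes tested, and 0 lower, against 2.11%. The lowest adjusted limma p of a member was 0.65. This fit has 2 residual degrees of freedom and assumes for the single control array the variance of the VEGF arrays. Its standard errors and p-values rest on the spread among 3 membranes. A prior of 5.23 degrees of freedom draws that spread towards the one of probe sets of similar signal. The spread between control CAMs does not enter. An exact permutation test of 3 arrays against 1 cannot go below p = 0.25 and was not used further.

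**Figure D2:**
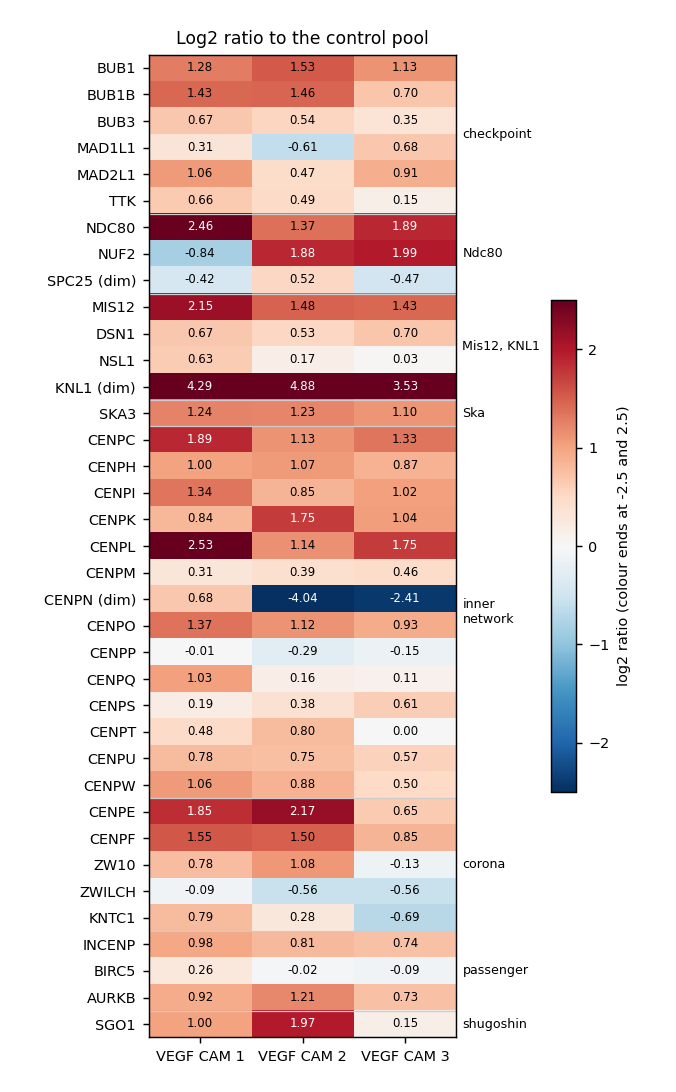
Log2 ratio of each VEGF CAM (columns) to the control pool for the 37 genes (rows) by subcomplex, with the value in each cell and colour from blue (lower) to red (higher). NDC80, CENPL and CENPC are above 1 in every column, NUF2 changes sign between VEGF CAM 1 and the others, and the genes marked dim exceed the background on fewer than 2 arrays.

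The microtubule-binding end of the kinetochore is the Ndc80 complex. NDC80 itself, whose head domain grips the microtubule, read 85.3 in the control pool against 470.2, 221 and 317 in VEGF CAMs 1, 2 and 3. Every VEGF value was more than 2-fold above the control, with a mean log2 ratio of 1.91 (standard error 0.45, limma adjusted p = 0.65). That was the largest mean among the genes whose control signal was above background. NUF2, its partner in the same coiled coil, read 72.3 in the control pool and 40.4, 266 and 287 in VEGF CAMs 1, 2 and 3. The VEGF values of NUF2 thus lay on both sides of the control, with log2 ratios of -0.84, 1.88 and 1.99 and a standard deviation of 1.60. A second probe set of NUF2, also above background on all 4 arrays, read 54.9 in the control pool and 49.2, 200.1 and 31.6 in the VEGF CAMs. The probe sets thus have VEGF CAM 3 on opposite sides of the control, at log2 ratios of 1.99 and -0.80, and the call of NUF2 rests on VEGF CAMs 2 and 3 at the brighter one. At the brightest probe sets NDC80 was highest in the same VEGF CAM 1 in which NUF2 was lowest. This did not hold at their other probe sets above background on at least 2 arrays. There NUF2 was lowest in VEGF CAM 3, and NDC80 was highest in VEGF CAM 2, with 40.1 against 16.8 in VEGF CAM 1. SPC25, which anchors the complex to the inner kinetochore, stayed within the background on 3 of the 4 arrays, so its ratios are not interpreted.

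The Ska complex helps Ndc80 to follow shrinking microtubules. SKA3, its only member measured, read 53.6 in the control pool against 127, 126 and 115 in VEGF CAMs 1, 2 and 3. The 3 VEGF values were close to each other and all more than 2-fold above the control (mean ratio 2.29 ± 0.12, SD, n = 3 CAMs). On the log2 scale the mean was 1.19 with a standard error of 0.34 (limma adjusted p = 0.69).

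The Mis12 complex and the scaffold KNL1 link this outer layer to the centromere. MIS12 read 12.9 in the control pool, below background, against 57.0, 36.0 and 34.8 in VEGF CAMs 1, 2 and 3, all above it. Set against the background of the control array, 19.4, the geometric VEGF mean of MIS12 was at least 2.13-fold higher. In VEGF CAMs 2 and 3 MIS12 was less than 2-fold above that background. DSN1, another subunit, was measured well in all samples, at 178 in the control pool and 283, 256 and 288 in the VEGF CAMs. Its mean ratio was 1.55 ± 0.10 (SD, n = 3 CAMs), so that all 3 CAMs were above the control but none reached 2-fold. NSL1 read 24.2 and then 37.5, 27.3 and 24.8. KNL1 lay within the background on all 4 arrays, from 0.42 in the control pool to 12.2 in VEGF CAM 2, and although the rule called it higher no fold can be given.

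The checkpoint genes differed among themselves. BUB1, a kinase that marks the centromere and recruits other checkpoint proteins, read 172 in the control pool against 418, 496 and 375 in VEGF CAMs 1, 2 and 3. Its mean ratio was 2.5 ± 0.36 (SD, n = 3 CAMs), with a mean log2 ratio of 1.31 (standard error 0.33, limma adjusted p = 0.65). BUB1B, which as BubR1 sits in the inhibitor of the anaphase promoting complex, read 166 and then 448, 457 and 270.4. In VEGF CAM 3 it was nearer to the control, at a log2 ratio of 0.70, than in VEGF CAMs 1 and 2, at 1.43 and 1.46. Both genes had all VEGF values above the control.

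The remaining checkpoint genes were not called. MAD2L1, which captures CDC20, read 403 in the control pool and 838, 556 and 758 in VEGF CAMs 1, 2 and 3, more than 2-fold in VEGF CAM 1 only. BUB3, which docks BUB1 and BubR1 on the kinetochore, read 1198 and then 1908, 1743 and 1525, a mean ratio of 1.44 ± 0.16 (SD, n = 3 CAMs). The kinase TTK, which starts the checkpoint, read 35.0 and then 55.2, 49.1 and 38.7, a mean ratio of 1.36 ± 0.24. At these probe sets each VEGF CAM was above the control by less than 2-fold for both genes. A second probe set of TTK was above background on 3 arrays, but not in the control pool. It read 17.9 in the control pool and 24.8, 56.8 and 14.6 in VEGF CAMs 1, 2 and 3. Its log2 ratios were 0.47, 1.67 and -0.29, with VEGF CAM 2 more than 2-fold above the control and VEGF CAM 3 below it. MAD1L1, the anchor of MAD2L1, lay between 10.1 and 24.9 on the 4 arrays, at the level of the background, with VEGF values on both sides of the control of 15.5. The median log2 ratio of the 6 checkpoint genes was 0.67.

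The inner network holds 14 of the 37 genes, of which 5 were called higher and 1 lower, against 8.16% and 10.7% of all genes. CENPC, which binds the centromere nucleosome, read 21.0 in the control pool against 77.9, 45.7 and 52.8 in VEGF CAMs 1, 2 and 3. CENPL, partner of CENPN in the network, read 30.4 and then 175, 66.8 and 102. Both genes were more than 2-fold above the control in every VEGF CAM, with log2 ratios from 1.13 to 1.89 for CENPC and from 1.14 to 2.53 for CENPL. Their mean log2 ratios were 1.45 for CENPC (standard error 0.45) and 1.80 for CENPL (standard error 0.54), both with a limma adjusted p = 0.69. CENPC was close to the background in the control pool.

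CENPH, CENPI, CENPK and CENPM form one subunit of this network. Averaged over the 3 CAMs, CENPH, CENPI and CENPK were near each other, while CENPM was nearer to the control, with a mean log2 ratio of 0.39. In single CAMs CENPH, CENPI and CENPK lay further apart. CENPK had the lowest ratio of these 3 genes in VEGF CAM 1 (1.78) and the highest in VEGF CAM 2 (3.36). CENPH read 93.3 in the control pool and 186, 196 and 171 in VEGF CAMs 1, 2 and 3. CENPI read 87.2 and then 220.5, 157 and 177, and CENPK 169 and then 302, 568 and 348. The mean log2 ratios of CENPH, CENPI and CENPK were 0.98, 1.07 and 1.21, with standard errors of 0.33, 0.36 and 0.42. These errors belong to the contrast of VEGF with control within each gene. Differences between the 3 genes were not tested. CENPI and CENPK were called and CENPH was not, since its ratios of 2.00, 2.10 and 1.83 straddle the threshold. In VEGF CAM 1 the ratio of CENPH was just short of 2.

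Of the CENPO, CENPP, CENPQ and CENPU subunit, only CENPO was called higher, against 8.16% of all genes. It read 26.7 in the control pool against 69.0, 58.0 and 50.9 in VEGF CAMs 1, 2 and 3 (1.14 on the log2 scale on average, with a standard error of 0.40 and a limma adjusted p = 0.71). CENPU read 28.2 and then 48.6, 47.4 and 41.8, a mean ratio of 1.63 ± 0.13 (SD, n = 3 CAMs) with every VEGF CAM above the control. CENPQ read 139 in the control pool and 283 in VEGF CAM 1, but 155 and 149.7 in VEGF CAMs 2 and 3. CENPP differed in direction from the rest of this subunit, with 189 in the control pool and 187, 155 and 170.3 in the VEGF CAMs, a mean ratio of 0.90 ± 0.08 (SD, n = 3 CAMs). Its other probe set, at 47.9 in the control pool and 108, 68.6 and 79.9 in VEGF CAMs 1, 2 and 3, went the other way.

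The histone-fold proteins CENPT, CENPW and CENPS make a second bridge from DNA to Ndc80. CENPW read 211 in the control pool against 439, 388 and 298 in VEGF CAMs 1, 2 and 3. All 3 were above the control, and the log2 ratio averaged 0.81 (standard error 0.35, limma adjusted p = 0.80). CENPT and CENPS had mean log2 ratios of 0.43 and 0.39, with standard errors of 0.45 and 0.32. CENPM, of the CENPH subunit, had 0.39 with 0.37. For CENPW, CENPT, CENPS and CENPM each VEGF value was above the control, but in VEGF CAM 3 CENPT was at 37.4 against 37.3. CENPS was highest in VEGF CAM 3, with 382 in the control pool and 434, 497 and 583 in the VEGF CAMs. CENPN, which reads the centromere nucleosome, lay below background on 3 of the 4 arrays, at 13.6 in the control pool and 21.7, 0.82 and 2.55 in the VEGF CAMs. Its call as lower therefore compares signals within the background.

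The corona is the outermost fibrous layer. CENPE, a motor that carries chromosomes towards the spindle equator, read 49.1 in the control pool against 176, 221 and 76.9 in VEGF CAMs 1, 2 and 3. CENPF, which links the kinetochore to dynein regulators, read 19.4 and then 56.7, 54.9 and 35.1. Set against the background, which its control signal just missed, the geometric VEGF mean of CENPF was at least 2.46-fold higher. In both genes every VEGF CAM was above the control, and VEGF CAM 3 was nearest to it.

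ZW10, KNTC1 and ZWILCH form the complex that brings dynein to kinetochores. Of these genes 0 were called, where the rule took 8.16% of all genes as higher and 10.7% as lower. With so few genes this count does not set the complex apart. ZW10 read 139.6 in the control pool against 239, 295 and 128 in VEGF CAMs 1, 2 and 3. KNTC1 read 34.6 and then 59.95, 42.0 and 21.4. At these probe sets VEGF CAMs 1 and 2 were above the control and VEGF CAM 3 below it for both genes. ZWILCH was below the control in all 3, with 49.4 against 46.5, 33.5 and 33.6 (mean ratio 0.77 ± 0.15, SD, n = 3 CAMs; limma adjusted p = 0.87). Its other probe set, above background on all 4 arrays, was also lower in each VEGF CAM, with a mean log2 ratio of -0.52. The median log2 ratio of the 5 corona genes was 0.79, 1.08 and -0.13 in VEGF CAMs 1, 2 and 3. The -0.13 is the value of ZW10 at the probe set used. At its other probe set, above background on all 4 arrays, ZW10 had 1.17 for VEGF CAM 3. The sign of that median thus depends on the choice of probe set.

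The chromosomal passenger complex moves from centromeres to the midzone in anaphase. AURKB, its kinase, read 508 in the control pool against 964, 1174 and 844 in VEGF CAMs 1, 2 and 3. INCENP, which binds and activates the kinase, read 607 and then 1194, 1063 and 1014. The mean ratios were 1.96 ± 0.33 for AURKB and 1.80 ± 0.15 for INCENP (SD, n = 3 CAMs), below the 2-fold rule and with every VEGF CAM above the control. Both had a limma adjusted p = 0.69. BIRC5, the survivin subunit, did not follow, with 51.3 in the control pool and 61.6, 50.5 and 48.1 in the VEGF CAMs, on both sides of the control. Its mean ratio was 1.04 ± 0.14 (SD, n = 3 CAMs).

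SGO1 guards the cohesin of the centromere until anaphase. It read 18.9 in the control pool, just under the background, against 37.7, 74.1 and 20.9 in VEGF CAMs 1, 2 and 3. All VEGF values were higher than the control, but the spread between them was wide, with log2 ratios of 1.00, 1.97 and 0.15 and a standard error of 0.70 (limma adjusted p = 0.86). The call of SGO1 rests on VEGF CAMs 1 and 2, and in VEGF CAM 1 the ratio is at the threshold of 2.

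Averaged over the 3 CAMs, the subcomplexes had medians of the same sign, but at the probe sets used this did not hold in each CAM. The Ndc80 median was -0.42, 1.37 and 1.89 in VEGF CAMs 1, 2 and 3. The -0.42 is the value of SPC25, whose signal in VEGF CAM 1 was within the background. In that CAM NDC80 had 2.46 and NUF2 -0.84. The corona median was -0.13 in VEGF CAM 3, the value of ZW10, whose other probe set had 1.17 there. The median of the mean log2 ratios was 0.76 over the inner network, 0.84 over the passenger complex and 0.58 over the corona. Over the Ndc80 complex it was 1.01, the value of NUF2, and over MIS12, DSN1, NSL1 and KNL1 it was 1.16. Over DSN1 and NSL1 alone, the 2 of these with a control signal above background, it was 0.46, and each of these medians stands on 14 genes or fewer. VEGF CAM 1 gave the highest ratio for 21 of the 37 genes and VEGF CAM 3 the lowest for 23, while over all genes VEGF CAM 1 was highest in 4090 and VEGF CAM 3 lowest in 3690 of 13008. With 1 array per membrane these differences between CAMs cannot be tested.

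The genes differed in how closely the 3 VEGF CAMs lay together. CENPM, SKA3, DSN1 and CENPH had standard deviations of the log2 ratio between 0.08 and 0.10 over the 3 CAMs. Among genes above background in the control pool, the widest spreads were those of NUF2 with 1.60, CENPE with 0.80 and KNTC1 with 0.75.

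Of the 37 genes, 19 have further probe sets, 29 in all, and most of these were dim. All 4 arrays were within the background in 15 of the 29. In the 11 that exceeded it on at least 2 arrays, 8 had a mean log2 ratio of the same sign as the probe set used above and 3 the opposite sign. CENPF had a pair of such probe sets, with mean log2 ratios of 1.06 and 1.59 beside the 1.30 of the brightest. ZW10 had 0.54 at its other probe set and 0.58 at the brighter one, but there VEGF CAM 3 was the highest and not the lowest, with 169 against 75.1 in the control pool. The other probe set of NDC80, with a mean log2 ratio of 3.92, was within the background in the control pool and read 1.33 in the control pool and 16.8, 40.1 and 12.2 in VEGF CAMs 1, 2 and 3.

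Opposite signs were found in BUB1, BUB1B and CENPP. The second probe set of BUB1 read 20.5 in the control pool and 20.2, 8.08 and 3.36 in VEGF CAMs 1, 2 and 3, and that of BUB1B 29.5 and then 1.51, 19.5 and 6.49. These signals are at or below background on all but 2 arrays of each, while the probe sets used for both genes read at least 166 on every array. As the mean of all their probe sets, the log2 ratios of BUB1 and BUB1B were -0.59 and -0.58.

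**Figure D3:**
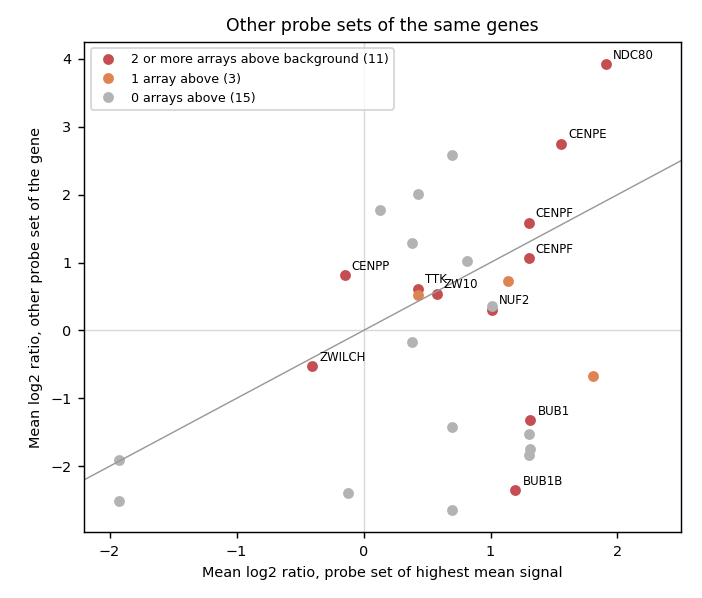
Mean log2 ratio of the 29 other probe sets (vertical) against that of the probe set of highest mean signal of the same gene (horizontal), coloured by how many arrays exceeded the background, with a line of equality. Of the 11 red points, 8 have the same sign on both axes, and BUB1, BUB1B and CENPP do not.

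Genes that act with the kinetochore were read from lists beside the 37. Of 12 other kinetochore and centromere genes on the array, 2 were called higher and 0 lower, against 8.16% and 10.7% of all genes. Their median log2 ratio was 0.35. PLK1, a kinase that works at kinetochores and elsewhere in mitosis, read 303 in the control pool against 1147, 604 and 944 in VEGF CAMs 1, 2 and 3 (1.52 on the log2 scale on average, with a standard error of 0.40 and a limma adjusted p = 0.68). SGO2, the other one called, lay within the background on all 4 arrays. ITGB3BP, the inner network protein CENPR, had a mean log2 ratio of 0.89. At the lower end were CENPV with -0.57, OIP5 with -0.26 and BOD1 with -0.24. OIP5 was above background on 2 arrays only, and not in the control pool. Its log2 ratios were 0.53, 0.21 and -1.51 in VEGF CAMs 1, 2 and 3.

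The anaphase promoting complex is the target of the checkpoint. Of 18 genes for its subunits and regulators, 1 was called higher and 2 lower, at rates near the 8.16% and 10.7% of all genes, and the median log2 ratio was 0.14. The one called higher was CDC20, the activator that the checkpoint holds back, with 127 in the control pool and 372, 319 and 248 in VEGF CAMs 1, 2 and 3. FBXO5 and FZR1, an inhibitor and an activator of the complex, were called lower with mean log2 ratios of -1.78 and -1.04, each above background on 2 of 4 arrays. FBXO5 read 35.1 in the control pool and 20.7, 15.7 and 3.27 in the VEGF CAMs.

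Cohesin holds sister chromatids together until the checkpoint is satisfied. Of 11 genes for cohesin and its regulators, 2 were called higher and 0 lower, against 8.16% and 10.7% of all genes. The median log2 ratio of this list was 0.43. The highest were PDS5A with 1.08, over a control signal of 18.9 within the background, and ESCO2, an acetyltransferase of cohesin in S phase, with 1.05. WAPL, which releases cohesin, had 0.08. Differences between these lists and the 37 genes were not tested.

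Markers of other cells were read in the same contrast. All 8 markers of blood endothelium were called higher, against 8.16% of all genes. All of them except FLT1 are in the authors' list of endothelial genes called higher by the 2-fold rule on these same arrays. The count is therefore not an independent result. The summed signal of these 8 markers was 2034 in the control pool and between 3664 and 6457 in the VEGF CAMs. Their median log2 ratio was 1.77, 0.95 and 1.61 in VEGF CAMs 1, 2 and 3. The proliferation marker MKI67 read 188 and then 525, 410 and 506, and TOP2A and PCNA had mean log2 ratios of 0.72 each. Epithelial markers, 3 of them on the array, were present in each sample, with EPCAM at 14941 in the control pool and between 9059 and 17058 in the VEGF CAMs. The keratin gene KRT5 was called lower, with 205 in the control pool and 40.7, 133 and 93.6 in VEGF CAMs 1, 2 and 3, and CDH1 was below the control in all 3 CAMs with a mean log2 ratio of -0.20. The summed signal of 6 fibroblast markers, most of it from collagen genes, was 25087 in the control pool and between 33511 and 47054 in the VEGF CAMs. In this list COL1A1 was called higher and PDGFRA lower. PDGFRA read 21.9 in the control pool and 7.53, 18.4 and 5.44 in VEGF CAMs 1, 2 and 3. For 4 leukocyte markers the sum, most of it from CD74, was 2309 and then between 1168 and 2723. PTPRC was below the control in all 3 CAMs, and 0 of these 4 were called. Of 4 markers of red blood cells 3 were called higher, against 8.16% of all genes, with a median log2 ratio of 1.01 over the list. These were HBE and SLC4A1, with mean log2 ratios of 1.01 each, and HBZ, which lay below background in the control pool. The globin HBA1, which made up most of the summed signal of the list (16960 in the control pool and between 13927 and 21586 in the VEGF CAMs), had a mean log2 ratio of -0.02. All of these markers were above background on all 4 arrays, except HBZ and PDGFRA, which were above it on 2. Which cells gave the kinetochore signal was not tested.

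**Figure D4:**
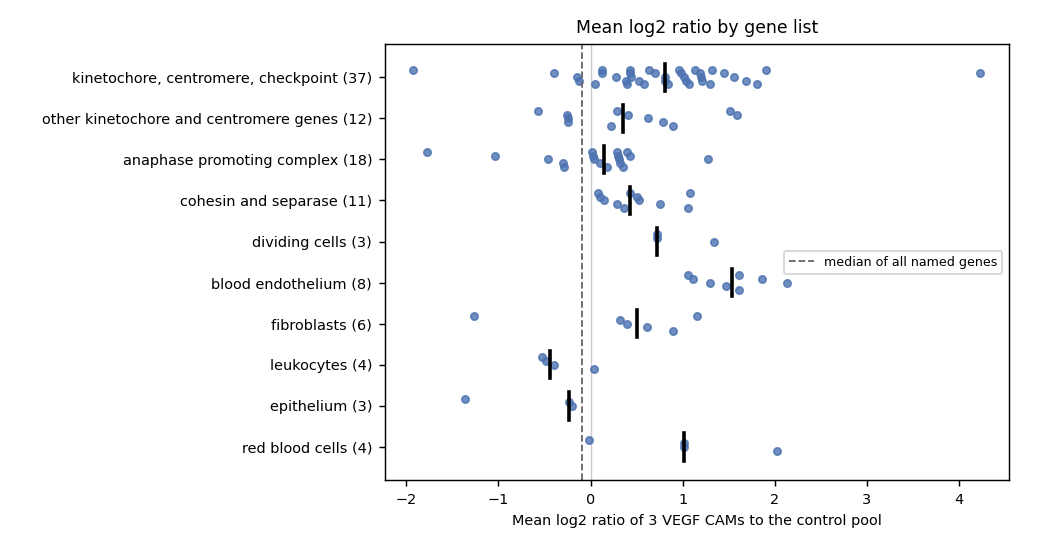
Mean log2 ratio of the 3 VEGF CAMs to the control pool, 1 point per gene, for the 37 genes and 9 other lists (number of genes in brackets), with a bar at the median and a dashed line at the median of all named genes, -0.09. The bar of the 37 genes is at 0.81, that of the anaphase promoting complex at 0.14 and that of blood endothelium at 1.54.

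Signs of RNA quality differed between the arrays. For actin the ratio of 3′ to 5′ signal was 24.2 in the control pool and 15.5, 19.7 and 22.9 in VEGF CAMs 1, 2 and 3, and that of the elongation factor EF1a was 8.74 and then 5.74, 6.65 and 7.38. The ratio of GAPDH was larger, at 67.0 in the control pool and 43.2, 58.0 and 66.9 in VEGF CAMs 1, 2 and 3. In each of these measures the order of the VEGF CAMs is the inverse of their order in the median of the 37 genes. The part of RNA quality in these ratios was not tested.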

How the data were processed

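Biotin-labelled cRNA of 1 control pool and 3 VEGF CAMs was read on Affymetrix chicken arrays. For every probe set the authors deposited a linear intensity from each array, and the submitters' processing notes name GCOS 1.2. The 2% trimmed mean was 100.03 on each array. Log2 ratios were taken from these intensities in Python 3.11.15, and limma 3.58.1 in R 4.3.3 used a trended prior (5.23 degrees of freedom) on 22616 of 37693 chicken probe sets, those with a mean signal above the 40th percentile, 11.1. Counts by the 2-fold rule used no filter. The detection calls of the authors' rule were not used here. Symbols come from the platform table, and all 37 members matched the RefSeq table of assembly GRCg7b, used for names only. The functions were tested on simulated data.

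Every member on the array is named, and of each other list at most 3 genes at either end. The members and lists were chosen with earlier results of these data known. The lists of cell markers describe the tissue. The endothelial list is no independent check of it, since the authors had already called most of its genes higher on these arrays. Columns left out numbered 0. Replicates are separate membranes, and the number of arrays limits the precision. A planned search of promoter motifs was not run, and sequences are not analysed here. Alternatives were quantile normalization, median centring, floors, an offset of 32, filters, other choices of probe set, limma without a trend and leaving out each VEGF CAM.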

Additional observations from a re-analysis of the deposited data

How the results depend on the processing

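Under quantile normalization, median centring and a floor at the 20th percentile, 14, 18 and 15 members were called higher, against 10.2%, 9.3% and 6.56% of all genes, and the median log2 ratio of the members lay between 0.81 and 0.91. Over all genes, higher calls made up 43.1% of the calls as deposited and 55.1% after quantile normalization. An offset of 32 on every signal, which shrinks the ratios of low signals by construction, gave 6 members higher (1.08% of all genes) and 0 lower (0.761%). The median of the members was then 0.55. The lower count was also 0 with the filter at the 60th percentile, against 3.12% of the genes past it. In 2 alternatives added after the data had been seen it was 0 as well. These were a floor at the background, against 2.94% of all genes, and control signals above it only, against 7.24% of such genes. With that floor 12 members were called higher, against 2.31% of all genes. With the probe set of highest control signal the lower count was 2, against 13% of all genes. As the mean of all probe sets, the median of the members was 0.57, with 10 called higher. The share of all genes was not computed for this alternative, so that count stands without a comparison. The log2 ratios of BUB1 (-0.59) and BUB1B (-0.58) reversed in it. Among genes not called, CENPU (-0.19) and CENPP (0.33) also changed sign there, and the called CENPF and CENPL came to 0.12 and 0.57. With the floor at the background KNL1 reversed to -0.34, since the floors of the arrays differ. Leaving out each VEGF CAM gave between 8 and 12 members higher, against between 4.54% and 5.03% of all genes. Between 0 and 1 members were lower, against between 5.4% and 5.88%, and the median lay between 0.68 and 0.89. By limma 0 members passed in every alternative run. The lowest adjusted limma p of a member lay between 0.22 (without VEGF CAM 2) and 0.93 (without VEGF CAM 1). In the limma fit without a trend 10 of 35 members were higher at an unadjusted p under 0.05. The share of all genes was not computed for that fit, so this count also stands without a comparison. No paired analysis was possible because the control pool is a single array with no replicate number.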
